A study of Mus musculus with 14 samples.

Results

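The smooth muscle contractile genes are 10 genes of the contractile apparatus, namely Acta2, Actg2, Tagln, Cnn1, Lmod1, Myl9, Myh11, Tpm1, Tpm2 and Des, chosen by their symbols among the 23331 genes of the count table. Each was found once, and all 10 passed the filter on low counts, a level of at least 1 CPM in at least 3 libraries, which 13896 genes passed. CPM are counts scaled by TMM-adjusted library size, and CPM per kb divides them by the exonic length of the gene.

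The cells were bone marrow stromal cells flushed from femur and tibia of adult C57Bl/6 mice with the irtTA-GBD*-TAg transgene, which drives large T-antigen when dexamethasone and doxycycline are given. Every group was grown with both inducers, cloned, and kept without them for 3 days before RNA extraction, so the transgene and the earlier treatment are shared by all libraries, and untreated or primary cells were not analysed here. The clones were grouped by the lineages they could form: osteogenic, adipogenic and chondrogenic (OAC), osteogenic and adipogenic (OA), osteogenic only (O), adipogenic only (A), osteogenic and chondrogenic (OC), or adipogenic and chondrogenic (AC). OAC, OA, O and A have 3 libraries each, in which numbers 1 and 2 each stand for an individual clone, taken from a different mouse, while number 3 combines further clones of the same mice. OC and AC are 1 pool each. The 14 libraries are therefore 8 single clones and 6 pools, and each clone descends from 1 cell. P values therefore measure the spread among clones and pools, in which differences between clones and between animals cannot be told apart.

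Smooth muscle cells contract by sliding actin filaments along myosin II, and the actin (Acta2, Actg2), its binding proteins (Tagln, Cnn1, Lmod1), the myosin chains (Myh11, Myl9), the tropomyosins (Tpm1, Tpm2) and the intermediate filament protein desmin (Des) make up that machinery. Many of these genes are switched on by serum response factor (SRF), which binds a DNA element called the CArG box together with myocardin or the myocardin-related factors Mkl1 and Mkl2, the latter sensitive to the state of the actin cytoskeleton. In cultured bone marrow stroma, part of the set is also made by stress-fibre-rich mesenchymal cells, and Acta2 and Tagln are therefore used both as mural cell and as stromal markers. Myh11 and myocardin are more closely tied to differentiated smooth muscle.

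Promoter sequences from RefSeq (build GRCm38.p6) were matched to 7 of the 10 genes: Acta2, Cnn1, Des, Lmod1, Myl9, Tpm1 and Tpm2. Each window ran from 250 bases before to 50 bases after the annotated start. The CArG box was searched as CC, 6 core bases and GG, with all 6 core bases A or T, or with 1 of them G or C. That pattern is its own reverse complement, so 1 scan covers both strands. Of the 7 windows, 2 held a CArG box in either form, those of Acta2 and Myl9, whereas 9.98% of 32851 RefSeq promoter windows of the same length did. The form with a core of A and T only was in 1 of the 7, Myl9, and in 1.63% of all windows. The 250 bases before the start follow for these 2 genes, for Lmod1, whose level ran closest to that of another member across libraries, and for Tpm1, which did not follow the rest. Sequences run 5′ to 3′ on the gene's own strand, and capitals mark the CArG boxes.
Acta2, chr19:34255374-34255623, minus strand: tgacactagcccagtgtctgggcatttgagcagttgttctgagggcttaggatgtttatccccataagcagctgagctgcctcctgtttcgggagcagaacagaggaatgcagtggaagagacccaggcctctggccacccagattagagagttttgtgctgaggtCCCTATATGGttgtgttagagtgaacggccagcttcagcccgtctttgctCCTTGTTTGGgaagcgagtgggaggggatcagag
Myl9, chr2:156775214-156775463, plus strand: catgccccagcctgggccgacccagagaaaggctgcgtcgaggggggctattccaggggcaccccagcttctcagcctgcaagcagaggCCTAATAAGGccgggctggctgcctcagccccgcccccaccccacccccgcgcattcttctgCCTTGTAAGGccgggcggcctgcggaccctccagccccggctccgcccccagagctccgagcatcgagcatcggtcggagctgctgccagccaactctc
Lmod1, chr1:135324563-135324812, plus strand: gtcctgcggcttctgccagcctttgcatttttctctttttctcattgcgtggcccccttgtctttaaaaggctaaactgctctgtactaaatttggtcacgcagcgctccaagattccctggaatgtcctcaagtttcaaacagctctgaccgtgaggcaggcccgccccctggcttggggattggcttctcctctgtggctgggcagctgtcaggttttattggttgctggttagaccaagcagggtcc
Tpm1, chr9:67049214-67049463, minus strand: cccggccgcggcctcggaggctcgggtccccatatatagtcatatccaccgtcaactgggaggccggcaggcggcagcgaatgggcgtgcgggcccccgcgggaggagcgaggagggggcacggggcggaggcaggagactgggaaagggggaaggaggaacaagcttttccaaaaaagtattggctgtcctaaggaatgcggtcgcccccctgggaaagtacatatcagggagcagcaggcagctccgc
In Acta2 the boxes are CCCTATATGG, which starts 84 bases before the annotated start, and CCTTGTTTGG, which starts 34 bases before it. Both have 1 G or C in the core, a form held by 8.5% of all windows. The Myl9 boxes are CCTAATAAGG, 161 bases before the start, and CCTTGTAAGG, 99 bases before it. The motif CATTCC, bound by TEAD factors and searched on both strands, was in 3 of the 7 windows (Acta2, Lmod1 and Tpm1) and in 14.66% of all windows. TATAAA, also searched on both strands, was in none of the 7 and in 13.62% of all windows. Motifs outside these windows were not searched, and the counts below follow an earlier build, mm9.

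Total counts ran from 16888190 to 26076539 per library. Libraries differed in a trend with gene GC content: Spearman's rho between a gene's GC content and its deviation from its mean over the 14 libraries ran from -0.55 in OAC3 to 0.65 in OA2. O1, at 0.51, was the next most positive, OAC2 and OAC1 had 0.36 and 0.35, and OC3 and AC3 had -0.54 each. Group results are given with and without OA2 and O1. The 10 genes together took 6428 CPM in O2 and 25876 CPM in OA2, the lowest and highest sums of the 14 libraries. OA2 had the highest level of 7 of the 10 genes and lay above the median for 10 of 10, whereas O2 had the lowest level of 6. Both are single clones, of different potency groups.

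**Figure D1:**
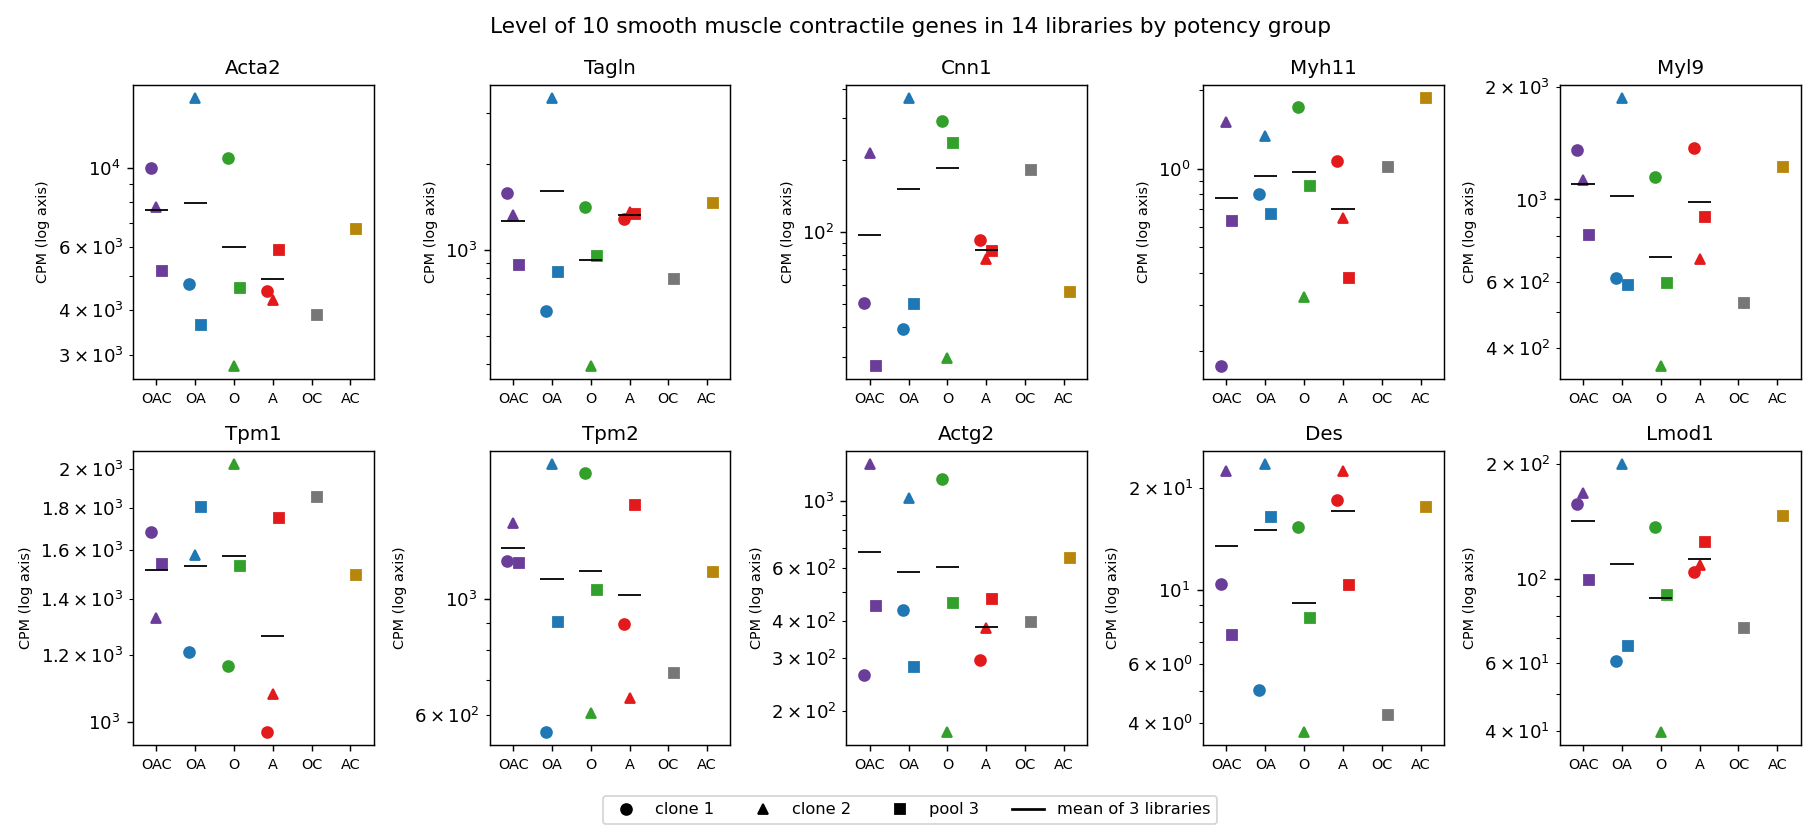
Level of each contractile gene in CPM (log axis) in the 14 libraries, by potency group; circles are clone 1, triangles clone 2, squares pool 3, and lines the mean of 3 libraries. OA2 tops 7 of the 10 panels, and in every panel the OAC, OA, O and A libraries overlap.

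Acta2, the smooth muscle alpha-actin, was among the most abundant transcripts of these cells. It ranked between 4th (OA2) and 19th (O2) of all genes by CPM, and took 0.289% to 1.38% of all counts. The tripotent libraries OAC1, OAC2 and OAC3 had 10011, 7774 and 5137 CPM. OA1, OA2 and OA3 had 4735, 15621 and 3630 CPM. Within O the levels were 10620, 2798 and 4621 CPM for O1, O2 and O3. A1, A2 and A3 were closer together at 4517, 4262 and 5881 CPM. The OC3 pool had 3871 CPM and the AC3 pool 6737 CPM. The means were 7641 ± 2440 CPM in OAC, 7995 ± 6627 in OA, 6013 ± 4092 in O and 4887 ± 871 in A (SD, n = 3 each). All 4 groups overlapped, and within OA the highest library was 4.3 times the lowest. Between O and A the log2 fold change was 0.30 ± 0.60 (SE, 95% interval -1.04 to 1.63, edgeR adjusted p = 0.999).

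Actg2, the gamma-actin of visceral smooth muscle, lay about an order of magnitude below Acta2. Its levels were 264, 1323 and 449 CPM in OAC1, OAC2 and OAC3, and 433, 1025 and 281 CPM in OA1, OA2 and OA3. The O libraries, in the same order, had 1183, 171 and 458 CPM, and the A libraries 296, 378 and 472 CPM. The OC3 and AC3 pools had 397 and 646 CPM. OAC2, O1 and OA2, all single clones, had the 3 highest levels, 1 in each of 3 groups. Per kb, the ratio of Acta2 to Actg2 had a median of 9.95 and ran from 5.15 in OAC2 to 33.3 in OAC1, so the extremes lay within the tripotent group. The O to A log2 fold change was 0.66 ± 0.76 (SE, interval -1.02 to 2.34, edgeR adjusted p = 0.94). The coding sequences of both actins have 84.2% of their bases in common. Exact copies in transcripts of other genes were found for 1.05% of the 36-base words of the Acta2 transcript and 0.54% of those of Actg2. Placement of reads with mismatches was not tested, and the aligner is not given.

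Tagln encodes transgelin (SM22 alpha), an actin-bundling protein. Its levels were 1578, 1322 and 889 CPM in OAC1, OAC2 and OAC3, and 611, 3382 and 835 CPM in OA1, OA2 and OA3. The O libraries had 1412, 394 and 953 CPM, whereas the A libraries had 1282, 1361 and 1339 CPM. OC3 had 789 CPM and AC3 1462 CPM. The A libraries were nearly equal, with a mean of 1327 ± 40.8 CPM and a highest to lowest ratio of 1.06, while the ratio was 5.53 in OA and 3.58 in O. The A values lay inside the OA and O ranges. Between O and A the log2 fold change was -0.53 ± 0.62 (SE, interval -1.91 to 0.85, edgeR adjusted p = 0.945).

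Lmod1, leiomodin 1, nucleates actin filaments in smooth muscle. It was 157, 168 and 99.2 CPM in OAC1, OAC2 and OAC3 and 60.8, 199.6 and 66.8 CPM in OA1, OA2 and OA3. The O libraries had 137, 39.7 and 90.9 CPM, and the A libraries 104, 109 and 125 CPM. The OC3 and AC3 pools had 74.3 and 146 CPM. As for Tagln, OA2 was highest, O2 lowest, and the A libraries within 1.21-fold of each other. The O to A log2 fold change was -0.34 ± 0.51 (SE, interval -1.47 to 0.80, edgeR adjusted p = 0.99).

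Cnn1, calponin 1, which binds actin and dampens myosin ATPase activity, varied most from library to library. OAC1, OAC2 and OAC3 had 50.7, 214 and 27.5 CPM, and OA1, OA2 and OA3 had 39.2, 364 and 50 CPM. The O libraries had 292, 29.8 and 236 CPM, against 92.8, 77 and 83.6 CPM in the A libraries. OC3 had 182 CPM and AC3 56.4 CPM. Over the 14 libraries the highest level was 13.2 times the lowest, and 84.5% of the genes tested had a smaller SD of log2 CPM. Of the 5 libraries above 150 CPM, 2 were O libraries, 1 was OAC, 1 was OA and 1 was OC. All A libraries and AC3 lay below 100 CPM, and so did OAC1, OAC3, OA1, OA3 and O2. Each of OAC1, OAC3, OA1, OA3 and O2 was lower than every A library. O2, at 29.8 CPM, kept the O and A groups overlapping. The O to A log2 fold change of 1.14 ± 1.04 (SE, interval -1.16 to 3.44) was the greatest of the 70 values over 10 genes and 7 comparisons, and did not pass (edgeR adjusted p = 0.878).

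Myl9, the regulatory light chain of smooth muscle myosin, ran from 358 CPM in O2 over a median of 851 to 1867 CPM in OA2. The group means were 1097 ± 280.4 CPM in OAC, 1025 ± 729.8 in OA, 701 ± 406 in O and 987 ± 348 in A (SD, n = 3 each), less far apart than libraries within a group. Its O to A log2 fold change was -0.49 ± 0.54 (SE, interval -1.68 to 0.70, edgeR adjusted p = 0.923). The heavy chain gene Myh11, by contrast, was close to the lower end of what the libraries can show. It had 4, 24 and 16 reads in OAC1, OAC2 and OAC3, 16, 25 and 15 in OA1, OA2 and OA3, 27, 8 and 23 in the O libraries, and 26, 16 and 10 in the A libraries. OC3 had 27 reads and AC3, the highest, 47. The lowest level, in OAC1, was 0.176 CPM with an exact Poisson 95% interval of 0.0481 to 0.452, and the highest, in AC3, was 1.86 CPM with an interval of 1.37 to 2.48. These intervals cover counting error only, and they do not overlap. Myh11 passed the filter through the 6 libraries above 1 CPM, which belong to OAC, OA, O, A, OC and AC. Of the 36-base words of its transcript, 0.83% also occur in Myh9, the non-muscle heavy chain, which had 4108 to 8554 CPM, and what part of the few Myh11 reads came from Myh9 was not tested. Its O to A log2 fold change was 0.45 ± 0.81 (SE, interval -1.33 to 2.24, edgeR adjusted p = 0.998).

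Tpm1 and Tpm2 encode tropomyosins, which lie along actin filaments and set access for myosin. Both genes are also used outside smooth muscle and make several splice forms, which gene counts do not separate. Tpm1 was the steadiest of the 10 genes. OAC1, OAC2 and OAC3 had 1683, 1330 and 1541 CPM, and OA1, OA2 and OA3 had 1209, 1580 and 1804 CPM. The O libraries had 1166, 2027 and 1531 CPM, and the A libraries 972, 1078 and 1749 CPM. OC3 had 1851 CPM and AC3 1497 CPM. O2, which had the lowest level of 6 other members, had the highest Tpm1 level, and A1 had the lowest. The whole range was 2.08-fold, and 21.6% of the genes tested had a smaller SD of log2 CPM. Tpm2 ran from 558 CPM in OA1 over a median of 1085 to 1812 CPM in OA2, with group means of 1253 ± 129 CPM in OAC, 1092 ± 648 in OA, 1132 ± 575 in O and 1020 ± 447 in A (SD, n = 3 each). The O to A log2 fold changes were 0.31 ± 0.29 for Tpm1 (SE, interval -0.33 to 0.96, edgeR adjusted p = 0.883) and 0.15 ± 0.49 for Tpm2 (SE, interval -0.94 to 1.24, edgeR adjusted p = 1).

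Des, desmin, forms the intermediate filaments of muscle cells and is also found in pericytes and some stromal cells. It was low, from 3.77 CPM in O2 over a median of 12.9 to 23.6 CPM in OA2, with 93 to 555 reads a library. The means were 13.4 ± 8.07 CPM in OAC, 15 ± 9.39 in OA, 9.13 ± 5.86 in O and 17.1 ± 6.21 in A (SD, n = 3 each). Desmin in O against A had the lowest edgeR p of all 70 values, at a log2 fold change of -0.91 ± 0.67 (SE, interval -2.39 to 0.58). With edgeR its unadjusted p was 0.205 and its adjusted p 0.79. O1, at 15.4 CPM, lay above A3, at 10.3 CPM, so those groups overlapped.

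Set in order by the median level per kb of exonic length, Acta2 stood at 2771 CPM per kb, Tagln at 821, Myl9 at 732, Tpm2 at 373, Actg2 at 282, Tpm1 at 237, Cnn1 at 33.9, Lmod1 at 26.9, Des at 3.43 and Myh11 at 0.125. Of the 9 pairs of neighbours in this order, the ranges over the 14 libraries were apart for Lmod1 over Des and for Des over Myh11 only. Within a library, Acta2 was above Tagln in 14 of 14, by a median ratio of 4.34. Tagln was above Myl9 in 6 of 14 libraries and Tpm2 above Actg2 in 7 of 14, so those neighbours have no fixed order. Exonic length sums all annotated exons, 6485 bases for Tpm1, whose longest transcript has 2890 bases, so the Tpm1 level per kb depends on which splice forms are made. The set thus spans from one of the top transcripts, Acta2, to a near-floor Myh11 in the same cells. The median level of Acta2 was 1.45 times that of Actb per kb within a library, but the transcripts of Actb share 28.91% of their 36-base words with other genes, so the Actb count is uncertain.

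**Figure D2:**
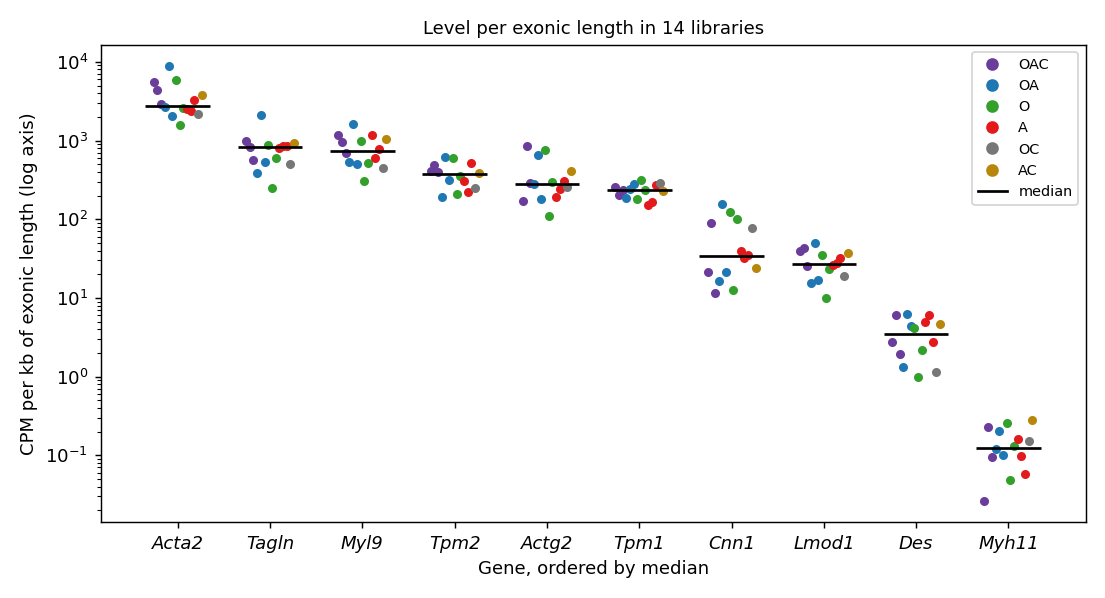
Level per kb of exonic length (CPM per kb, log axis) of each contractile gene in 14 libraries, coloured by group, ordered by the median (line). Acta2 has a median of 2771 and Myh11 of 0.125, and colours are mixed within each column.

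The question the grouping poses is whether the level of a contractile gene goes with the lineages a clone can form. No contractile gene passed in any comparison. In the test of any difference among OAC, OA, O and A, 0 of 10 genes passed an adjusted p (FDR) of 0.05 with edgeR's quasi-likelihood test, beside 0% of all genes tested, and the unadjusted p values of the 10 ran from 0.601 to 0.942. Of the 13896 genes, 5.97% had an unadjusted p under 0.05 in that test, and none of the 10 did. In the pairwise comparisons, 0 of 10 passed for O against A (background 0.0072%), OA against O (0%), OA against A (0.0072%), OAC against OA (0%), OAC against O (0%), OAC against A (0.0072%), and OAC with OA against O with A (0%). With so few calls among all genes, this count is not a result about the members. Over the 70 values, 0 had an unadjusted edgeR p under 0.05, 0 an unadjusted DESeq2 p under 0.05, 0 a DESeq2 adjusted p under 0.05, and in 0 did the groups not overlap.

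The background of those looser counts differed between comparisons. An unadjusted edgeR p under 0.05 was reached by 9.89% of all genes for O against A, 5.43% for OA against O, 5.27% for OA against A, 1.17% for OAC against OA, 6.02% for OAC against O, 3.58% for OAC against A and 4.86% for OAC with OA against O with A. DESeq2 called 3.03% of genes for O against A, 0.309% for OA against O, 0.937% for OA against A, 0% for OAC against OA, 0.728% for OAC against O, 0.411% for OAC against A, 0.223% for OAC with OA against O with A, and 2.1% in the test of any difference. Groups did not overlap for 15.7% of genes between O and A, 8.2% between OA and O, 11% between OA and A, 4.93% between OAC and OA, 11.5% between OAC and O, 10.8% between OAC and A, and 0.288% between OAC with OA and O with A. Read against shares of this size, counts of 0 of 10 are not a result about the members either. The intervals of single genes were wide, for Cnn1 between O and A from -1.16 to 3.44 on the log2 scale, and for Tpm1, the narrowest, from -0.33 to 0.96.

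Directions were mixed. The median log2 fold change of the 10 genes was 0.22 for O against A, beside 0.03 for all genes, with 6 of 10 above 0. It was 0.13 beside -0.08 for OA against O (5 above 0), 0.28 beside -0.03 for OA against A (8 above 0) and -0.04 beside 0.00 for OAC against OA (4 above 0). For OAC against O it was 0.26 beside -0.06 (7 above 0), and for OAC against A 0.23 beside -0.03 (8 above 0). These comparisons share libraries, and the genes move together from library to library, so the counts are not separate observations. OAC with OA against O with A gave a median of 0.25 beside -0.04, with 9 of 10 above 0 and Cnn1, at -0.05, the exception. The greatest of these 10 values was that of Acta2, 0.53 ± 0.43 (SE, interval -0.42 to 1.47, edgeR adjusted p = 0.998), from means of 7818 and 5450 CPM.

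**Figure D3:**
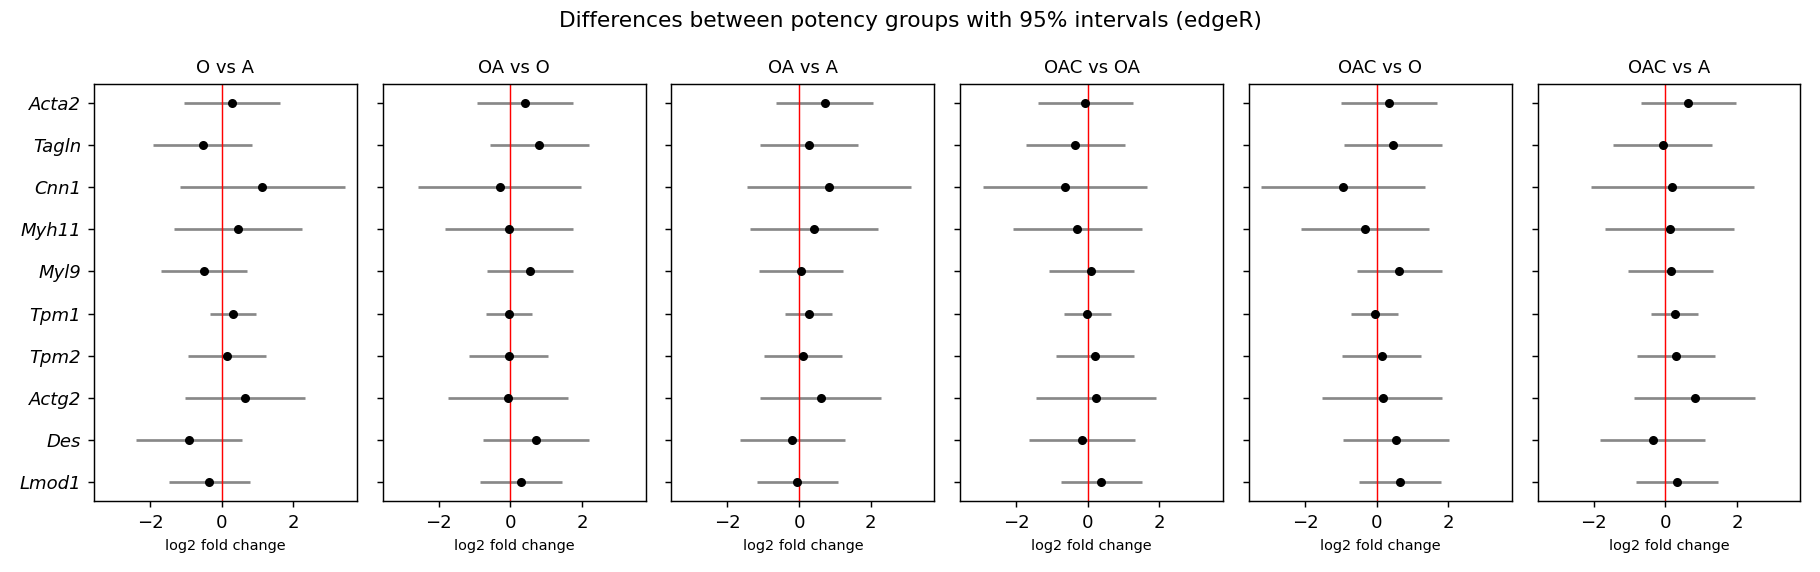
Log2 fold change (x axis, first group minus second) of each contractile gene in 6 comparisons of potency groups, with 95% intervals from edgeR (n = 3 libraries a group). Every interval includes 0, and Tpm1 has the narrowest and Cnn1 the widest.

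Leaving out OA2 and O1, the libraries with the most positive GC trend, moved the values without giving a call. Of the 70 values, 10 then had an unadjusted edgeR p under 0.05, and 0 passed the FDR. Between OAC and O, 4 of the 10 genes had an unadjusted p under 0.05, beside 8.62% of genes: Myl9 at a log2 fold change of 1.23, Lmod1 at 1.15, Acta2 at 1.08 and Tagln at 0.94, with edgeR adjusted p values of 0.563 to 0.564. The median of the 10 genes for OAC against O was then 1.01, beside 0.02 for all genes. Between OAC and OA the median became 0.85, beside -0.02, with 10 of 10 genes above 0 and 3 with an unadjusted p under 0.05, beside 2.01% of genes. For O against A it turned to -0.37, beside -0.02, with 2 of 10 above 0, and Myl9 (-1.07) and Tagln (-0.99) had an unadjusted p under 0.05, beside 12.2% of genes. For OA against A it turned from 0.28 to -0.58, beside 0.01, with 2 of 10 above 0, and Lmod1 (-0.82) had an unadjusted p under 0.05, beside 6.78% of genes. Acta2, Myh11, Tpm2 and Actg2 changed sign for O against A, to -0.41, -0.25, -0.32 and -0.30. O and OA were left with 2 libraries each, and these tests rest on the fit's shared spread. OA2 and O1 are also high in the members, with median log2 deviations of 1.09 and 0.61, so leaving them out lowers OA and O. OAC kept OAC1 and OAC2, with GC trends of 0.35 and 0.36 and median deviations of 0.20 and 0.58. The shift of OAC above OA and O thus depends on which libraries were left out, and the part of GC in it was not tested.

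Most of the spread lay between libraries of the same group, as it did for the median gene tested. With 3 libraries in each of 4 groups, this holds for any gene without a group difference. Whether the members differ from other genes here was not tested. Over the 12 libraries of the 4 groups, the part of the sum of squares of log2 CPM that lay within groups had a median of 86.7% over the 10 genes, lowest for Lmod1 at 78.2% and highest for Actg2, beside a median of 77.5% over all genes tested. The SD of log2 CPM over the 14 libraries had a median of 0.71 over the 10 genes and 0.51 over all genes. Without OA2 and O1 these medians were 0.61 and 0.39. After each library's GC trend was removed they were 0.67 and 0.46.

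Across the 14 libraries most members were positively correlated, and Tpm1 was the exception. Of the 45 pairs of genes, 37 had a positive Pearson's r of log2 CPM, and the median r was 0.55. That median was 0.73 among the 8 clones, 0.21 among the 6 pools and 0.42 without OA2 and O1. The closest pair was Tagln and Lmod1, with r = 0.94 and Spearman's rho = 0.92 (permutation p = 1e-05 for each, the smallest that 100000 permutations can give, adjusted over 45 pairs to 0.00015 and 0.00045). Without O2 and OA2, the libraries farthest from the Tagln median, r was 0.91, and it was 0.94 among the 8 clones and 0.94 among the 6 pools. Myl9 tracked Lmod1 at r = 0.91 and Tagln at r = 0.90, and Acta2 tracked Lmod1 at 0.87, Myl9 at 0.86, Tagln at 0.85 and Tpm2 at 0.82 (permutation p adjusted over 45 pairs, 0.00015 to 0.00169). Their rho values were 0.84, 0.83, 0.85, 0.79, 0.79 and 0.84, and with the 2 farthest libraries left out r stayed between 0.70 and 0.88. In all, 19 of the 45 pairs had an adjusted permutation p under 0.05 for r. No share for pairs of other genes stands beside these counts. They therefore do not show that the members correlate more than other genes do.

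Actg2 had r values of 0.72 with Acta2, 0.71 with Lmod1 and 0.70 with Tpm2. It also had an r of 0.74 with Myh11 and 0.70 with Cnn1 (rho 0.70 and 0.62, permutation p adjusted over 45 pairs 0.009 and 0.0133 for r, and 0.0237 and 0.0495 for rho). Without the 2 farthest libraries, r was 0.65 and 0.52. Cnn1 and Myh11 had an r of 0.59, which did not pass (permutation p adjusted over 45 pairs 0.0592). Myh11 had only 4 reads in OAC1 to 47 in AC3, so counting error is part of all its r values. For Cnn1, the r with Actg2 was 0.90 among the clones and 0.01 among the pools, and the r with Acta2 was 0.77 and -0.28. Over the 9 pairs with Cnn1 the median r was 0.79 among clones and -0.22 among pools. That difference was not tested, and 6 pools give an imprecise r. Tpm1 went with none of the others: its 9 values of r ran from -0.50 with Des to 0.02 with Tpm2, with a median of -0.29 and no adjusted permutation p under 0.05.

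**Figure D4:**
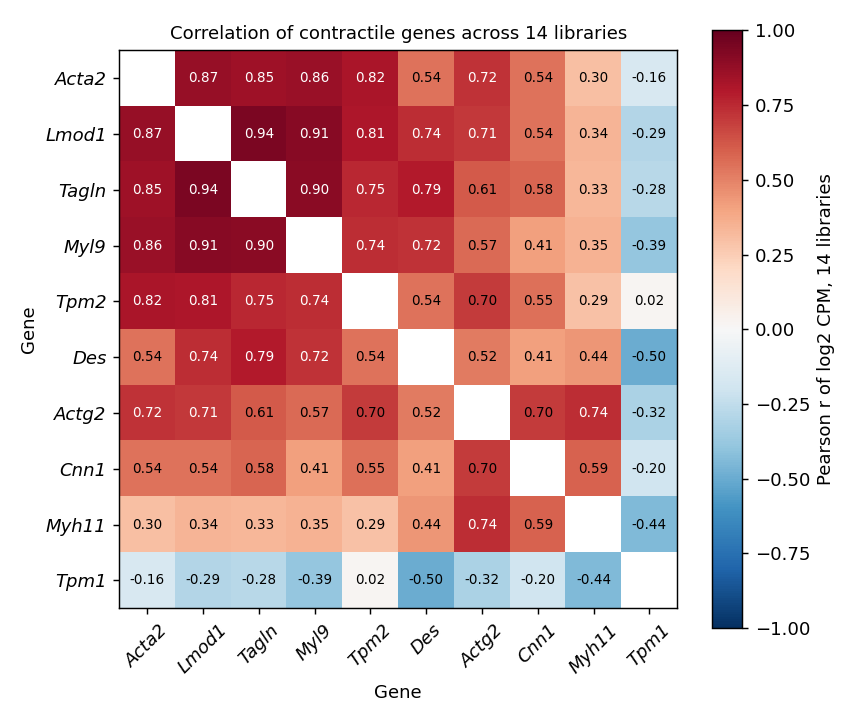
Pearson's r of log2 CPM over 14 libraries for each pair of contractile genes (colour and number; both axes list the genes). Lmod1, Tagln, Myl9, Acta2 and Tpm2 have values of 0.74 to 0.94 with each other, while the Tpm1 row runs from -0.50 to 0.02.

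The libraries' GC trend moved with some of these genes. The r between a library's GC trend and log2 CPM was 0.80 for Acta2 (permutation p = 0.00069, adjusted over 10 genes to 0.0069, rho 0.62 with permutation p = 0.02, adjusted 0.0877), 0.69 for Myl9 and 0.63 for Tagln (permutation p 0.0075 and 0.013, adjusted 0.0375 and 0.0435, rho 0.60 and 0.53, adjusted 0.0877 and 0.0966). The other 7 genes did not pass for r, among them Lmod1 (r 0.61, permutation p 0.0209, adjusted 0.0524), and no rho passed the adjustment. Without OA2 and O1 the r values were 0.61, 0.55 and 0.41. Among the clones they were 0.97, 0.86 and 0.81, and among the pools 0.19, 0.11 and 0.41. The GC content of the Acta2 transcript, 49.6%, was close to the median gene's 49.9%. Removing each library's trend from the levels left the Acta2 value at 0.80, while that of Myl9 became 0.46 and that of Tagln 0.53. The median r over the 45 pairs of members was then 0.46. The part of the GC trend in these levels beyond this correction was not tested. The permutation p values here carry the same limit as those of the gene pairs.

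**Figure D5:**
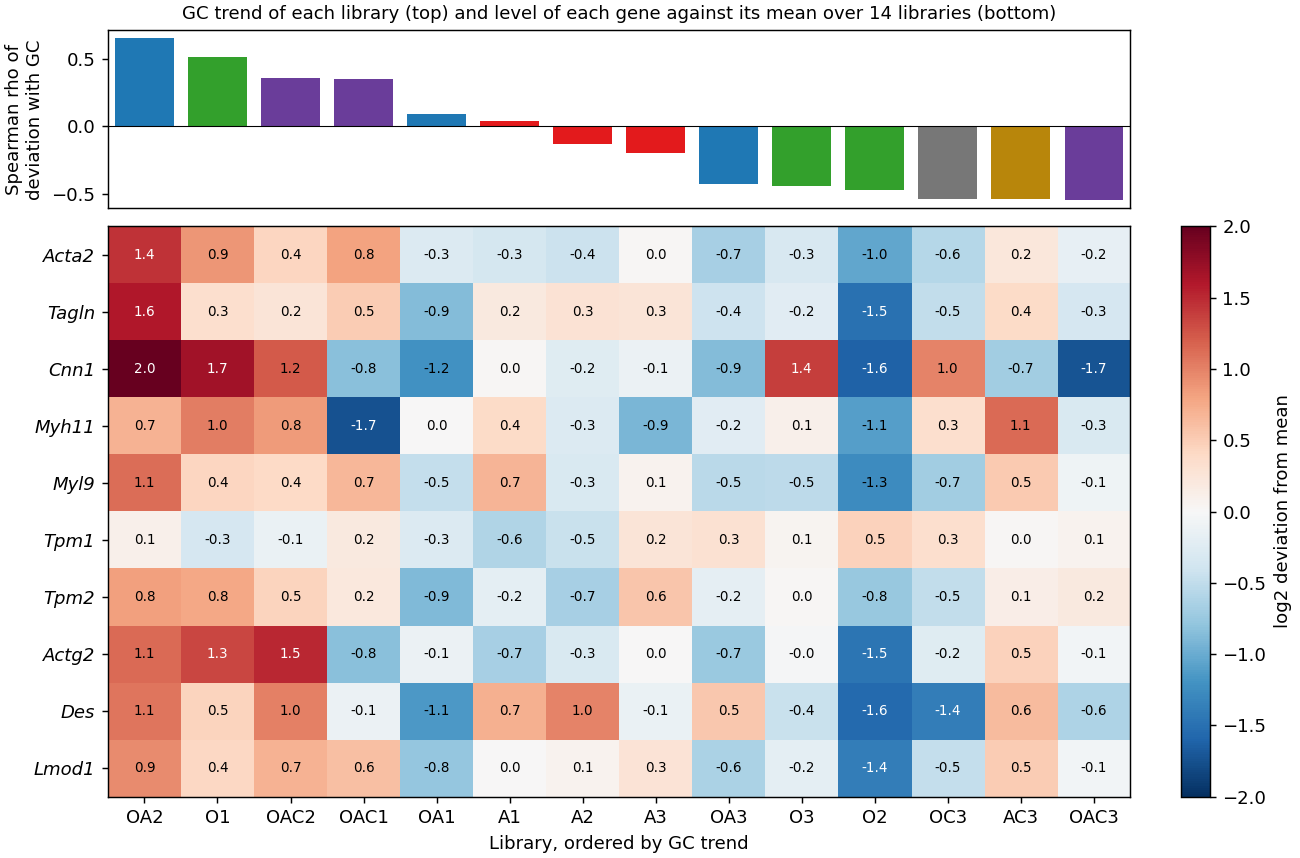
Top, Spearman's rho between gene GC content and deviation from the mean in each library (y axis); bottom, log2 deviation of each contractile gene (rows) from its mean over 14 libraries (columns, in the same order). OA2 is above the mean for all 10 genes and O2 below it for all but Tpm1.

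Among the genes that are no member and average at least 5 CPM, 9699 were ranked by Pearson's r with each of 4 members over the 14 libraries, as a description without a test. The closest to Acta2 were Tmem63a (0.94), Lin37 (0.93), Tgfb1i1 (0.93) and Shc1 (0.92). After GC correction Tgfb1i1, which encodes the focal adhesion protein Hic-5 and is also on the list of regulators described next, had an r of 0.92 and Shc1 of 0.87, while Tmem63a had 0.75 and Lin37 0.76. There were 38 genes closer to Acta2 than Lmod1, its closest member, and 53 closer than Myl9. For Tagln they were Slc44a2 (0.93), Arhgap1 (0.93), Parva (0.93), which encodes the integrin-linked adhesion protein alpha-parvin, and Prr14 (0.92), with 0.89, 0.89, 0.84 and 0.84 after GC correction, and none of the 9699 was closer to Tagln than Lmod1 was. For Cnn1 they were Fbxl12 (0.84), Faf2 (0.80), Kalrn (0.80) and Itga3 (0.79), and 31 genes were closer to Cnn1 than Actg2 was. After GC correction these 4 had 0.65, 0.79, 0.79 and 0.34. For Myh11 they were Dguok (0.81), Zfp446 (0.80), Dopey2 (0.74) and Zbtb8a (0.72), with 0.59, 0.77, 0.69 and 0.70 after GC correction. Since Myh11 has few reads, counting error enters its ranking as well. All genes share the libraries' differences in depth and GC trend. With 14 libraries, the highest of 9699 values is also high in part because so many were ranked.

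Of 15 listed SRF and myocardin-family regulators, 14 were in the table and tested, and with edgeR 0 passed in either direction in the test of any difference and in each of the 7 comparisons. The median log2 fold change of the list for O against A was 0.15, beside 0.03 for all genes. The number of the 14 with an unadjusted edgeR p under 0.05 was 1 in the test of any difference, beside 5.97% of all genes. It was 3 for OA against A (5.27% of all genes) and 2 for OAC with OA against O with A (4.86%). It was 1 each for O against A (9.89%), OAC against OA (1.17%) and OAC against A (3.58%). For OA against O (5.43%) and OAC against O (6.02%) it was 0. DESeq2 called 0. Whether these counts differ from those shares was not tested. Srf itself had a median of 144 CPM, from 85.1 in AC3 to 239 in OAC2. Myocd, which encodes myocardin, was near the floor, with a median of 1.25 CPM, from 0.0636 in O1 to 4.72 in OAC1. O1, with the least Myocd, had 10620 CPM of Acta2, and OAC1, with the most Myocd, had 10011 CPM. The myocardin-related factors were well above Myocd. Mkl1 had a median of 163 CPM, from 93.8 in O2 to 403 in O1. Mkl2 had 69.2 CPM, from 48 in OA2 to 83.6 in AC3. The r with Acta2 was -0.11 for Myocd, 0.56 for Srf, 0.56 for Mkl1 and -0.26 for Mkl2, and these were not tested. In the test of any difference the lowest edgeR adjusted p values of the list were 0.817 for Tgfb1, the cytokine TGF-beta 1, 0.876 for Csrp1, a LIM protein of actin filaments, and 0.877 for Klf4, a repressor of smooth muscle genes. Tgfb1 means were 131 ± 20.1 CPM in OAC, 134 ± 51.5 in OA, 86.6 ± 23.2 in O and 72 ± 17.1 in A (SD, n = 3 each).

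Of 36 other contractile and stress fibre genes, 34 were in the table and 31 were tested, and with edgeR 0 passed in any comparison. An unadjusted edgeR p under 0.05 was reached by 3 in the test of any difference, beside 5.97% of all genes. The number was 4 for O against A (9.89% of all genes), and 3 each for OAC against OA (1.17%) and OAC against O (6.02%). It was 2 each for OA against O (5.43%) and OA against A (5.27%), and 1 for OAC against A (3.58%). For OAC with OA against O with A (4.86%) it was 0. In the test of any difference Synpo2 and Pdlim5, which encode adaptor proteins of actin filaments, had edgeR adjusted p values of 0.718 and 0.817. The median log2 fold change of this list was -0.14 for O against A, beside 0.03 for all genes, whereas that of the 10 contractile genes was 0.22. Mylk, the kinase that activates smooth muscle myosin, had a median of 456 CPM, from 235 in OA1 to 1248 in OAC2. Myh9, the non-muscle myosin II heavy chain, had a median of 5928 CPM, or 459 per kb, against 0.125 per kb for Myh11.

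Markers of other cell types were checked, since bulk libraries cannot tell fewer cells of a type from less RNA per cell. Stroma and bone genes summed to 17356 CPM in A2, the lowest, and 84086 CPM in O1, the highest, with 7 of 7 listed genes past the filter. Most of the sum came from Col1a1 and Col1a2 (medians 31020 and 20313 CPM), so it mainly follows collagen I. Among the others, Cxcl12 was highest in A2, at 5124 CPM, Pdgfra in AC3, at 241 CPM, and Runx2 and Prrx1 in O2, at 218 and 407 CPM. Lepr, a marker of marrow stroma in the animal, reached at most 2.73 CPM. Of 8 pericyte and mural genes in the table, 6 passed the filter, and their sum ran from 541 CPM in O2 to 1684 in OA2, the same libraries that were lowest and highest for the contractile genes. By group it was 867 to 1256 CPM in OAC, 789.8 to 1684 in OA, 541 to 863 in O and 906 to 1195 in A. Pdgfrb (median 571 CPM), Notch3 (343) and Mcam (52.7) made up nearly all of it, while Rgs5, Abcc9 and Kcnj8 reached at most 2.29, 1.61 and 0.824 CPM. Cspg4 (median 0.98 CPM) reached 41.2 CPM in OC3, and Ndufa4l2 (median 0.377 CPM) 12.8 CPM in O1. The part of mural cells in the contractile gene levels was not tested. Of 8 further genes of differentiated smooth muscle, 6 passed the filter and the sum was 393 to 1525 CPM, most of it from Mylk and Smtn. Synpo2 reached 35.4 CPM, Rgs4 23.9 and Itga8 19.2, while Pln had 1 read in all libraries together, Casq2 at most 1.46 CPM and Kcnmb1 at most 4.46 CPM. Skeletal muscle genes summed to 0.822 to 2.48 CPM and cardiac muscle genes to 0.324 to 4.02 CPM, with 0 of 8 and 0 of 5 past the filter. Endothelial genes summed to 1.55 to 9.63 CPM and blood cell genes to 3.09 to 17.2 CPM, with 2 of 6 past the filter in each, and Ptprc, which encodes CD45, had 2 reads in all.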

How the data were processed

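Polyadenylated RNA of 14 mouse libraries was sequenced with a strand-specific protocol, per the labels. The authors deposited 1 table of raw read counts per gene. The submitters' processing notes name CASAVA 1.8.0, bedtools 2.11 and build mm9. Aligner, read filters and strand setting of the counting were not given in the sources used here, so overlapping and antisense genes cannot be separated. Exonic length is as deposited by the authors.

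Counts were analysed with edgeR 4.0.16 in R 4.3.3 (TMM, robust quasi-likelihood F test, 6 group means, 8 residual degrees of freedom, common dispersion 0.282). Genes with at least 1 CPM in 3 libraries were tested, 13896 of 23331, and p values were adjusted by Benjamini-Hochberg over all of them at 0.05. Standard errors were derived from each fold change and its F statistic. DESeq2 1.42.0 was the second test. Log2 CPM used a prior count of 2, and GC content came from GENCODE transcripts for 93.5% of genes. The GC trend was removed with a smooth fit (span 0.3) in each library. Correlation tests used 100000 two-sided permutations, which shuffled all 14 libraries without regard to clone, pool or mouse. Both tools were tested on simulated data with known changes in O. For O against A, edgeR recovered 0 of 50 genes changed 2-fold and 27 of 50 changed 4-fold. DESeq2 recovered 7 and 35 of these, but 67 of its 205 calls were unchanged genes, against 3 of 113 for edgeR.

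The members, lists, tests and alternatives were chosen with earlier results of these data known. Members got O against A statistics, and those of other comparisons only where an unadjusted edgeR p was under 0.05, which occurred in none; the Acta2 value for OAC with OA against O with A was added after its value was seen. The 4 genes nearest Acta2, Tagln, Cnn1 and Myh11 exclude predicted genes. From each further list, Srf, Myocd, Mkl1, Mkl2 and the 3 genes with the lowest p were named, and Mylk, Myh9 and Actb were added afterwards. The values of 1 listed gene are not reported here. Alternatives were DESeq2, its size factors, no filter, fewer groups, a replicate block, GC offsets, both together, and leaving out OA2 and O1 or each library.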

Additional observations from a re-analysis of the deposited data

How the results depend on the processing

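The count of contractile genes past the FDR was 0 in each of the 8 tests under all 20 alternative settings of each, 160 counts in all. With edgeR, 0% to 0.0072% of all genes passed per test in the main fit. Without OA2 and O1, 0 to 3 of 13800 genes did. Beside such shares, counts of 0 are not a result about the members, and shares for most other settings are not given. Myh11 was not tested in O against A with only those groups fitted. The lowest edgeR adjusted p of a member under the alternatives was 0.328, for Myl9 in O against A without OA2 and O1. Of 1594 tests of members in these settings, 14 had an unadjusted p under 0.05. Without OA2 and O1 there were 10 in the pairwise comparisons and 3 in the test of any difference. In that setting 2.01% to 12.2% of all genes had one in the pairwise comparisons, and 6.94% in the test of any difference. The other was Lmod1 for OAC against OA without OA2 alone. In the further DESeq2 fits of O against A that leave out each library, the lowest adjusted p was 0.294, for Tpm1 without A3, and Tpm1 without A3 and Des without O1 had unadjusted DESeq2 p values of 0.0226 and 0.0373. For O against A, 319 log2 fold changes of members were recomputed; 16 changed sign and 0 passed the threshold. Without OA2 and O1, Acta2 became -0.41, Myh11 -0.25, Tpm2 -0.32 and Actg2 -0.30. Leaving out each library in turn, edgeR gave -0.40 to 0.64 for Acta2, -0.23 to 0.89 for Myh11, -0.31 to 0.55 for Tpm2, -0.28 to 1.10 for Actg2 and -0.79 to 0.02 for Lmod1, and DESeq2, added after the data were seen, gave -0.39 to 0.72, -0.22 to 0.97, -0.30 to 0.62, -0.27 to 1.19 and -0.78 to 0.09. The sign changes came without O1 for Acta2, Myh11, Tpm2 and Actg2, without A2 for Tpm2 (-0.09 in edgeR, -0.02 in DESeq2) and without O2 for Lmod1. The cause was not tested. The numbers were not taken to pair libraries, since number 3 is a pool and the labels do not tie numbers 1 and 2 to a mouse. Correlations of deviations from group means between same-numbered libraries were -0.31 to 0.394 for number 1 and -0.585 to 0.467 for number 2. For number 3, the pools, they were 0.295 to 0.759, all positive. These deviations also carry the libraries' GC trends, so they cannot tell whether numbers 1 and 2 are paired. With the replicate block, alone or with GC offsets, 0 members were called in each of the 8 tests. With 3 libraries a group the intervals of O against A are wide for every member, and Myh11, with 4 to 47 reads a library, is limited by depth as well.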
